A study of Homo sapiens with 4 samples.

Results

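The cell division programme of PLC8024, a human hepatocellular carcinoma line, was examined through 55 listed genes: 26 that act in the G1 phase, at the entry into S phase and in DNA replication, 24 that act in G2 and mitosis, and 5 inhibitors of cyclin-dependent kinases (CDKs). The genes were chosen by name for their known roles, with earlier results of these data known. Of the 55 genes, 54 had a probe set that the array's annotation assigns to that gene alone, out of 19775 genes with such a probe set. CDKN2C had none and was not analysed here. The cells had been separated by flow sorting on CD133, a cell surface marker of candidate tumour-initiating cells in liver cancer, into 1 CD133+ and 1 CD133- population of the same line, with no further treatment named. Each population was deposited as 2 processings of its array values, log2 RMA summaries and linear MAS5 intensities, and there was no replicate of either population. Neither the gates of the sort nor the culture density was given in the sources used here.

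Cells enter S phase when cyclin D with CDK4 or CDK6, and then cyclin E with CDK2, phosphorylate the retinoblastoma protein and release E2F factors, which switch on genes for origin licensing, the replicative helicase and nucleotide supply. Cyclin A and cyclin B with CDK1 then drive the cell into mitosis, where Aurora and Polo-like kinases build the spindle and the spindle checkpoint holds back the anaphase-promoting complex. Inhibitors of the INK4 family block CDK4 and CDK6, and those of the CIP/KIP family bind a broader set of CDKs. In liver tumours these genes are commonly read as a measure of proliferation.

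Relative to the rest of each array, cell cycle transcripts were present at close to the same level in both populations. Of the 54 genes, 51 were above the floor, which is the median RMA value of the array (5.16 in CD133+ and 5.14 in CD133-), and all 51 were above it in both populations. No member was called at 2-fold, meaning that RMA and MAS5 both differed by at least 2-fold, the same way, against 3.34% of the 13116 genes above the floor. That the members lay under 2-fold was already known when the fold thresholds were chosen, so this count is a description and not a test. At 1.5-fold in both processings 4 of the 51 members were called, which is 7.84%, against 9.49% of all genes, so the members' share was near the background. The 4 were CDKN2A, GINS1 and KIF11, higher in CD133+ (3 members, 5.88%, against 5.32% of all genes), and AURKA, lower in CD133+ (1 member, 1.96%, against 4.17%). In MAS5 alone 1 member was called at 2-fold (1.96%, against 13.3%) and 9 at 1.5-fold (17.6%, against 28.1%). The median RMA difference, CD133+ minus CD133-, was 0.00 over the 51 members, with 26 members above 0 and 25 below it. Over all genes above the floor the median was also 0.00. The columns were on a common scale, with RMA medians of 5.16 and 5.14 and MAS5 trimmed means of 500.1 each. An all-gene median near 0 is thus no result, and a shift in total RNA between the populations would not show. With 1 array per population and processing no test was possible and no difference has an error between cultures or sorts. The one spread at hand is technical: in 6170 genes that have another probe set above the floor, the gap between the RMA differences of both had an SD of 0.35. Of the 51 members 41 had a difference no larger than this SD, which is 80.4%, against 72.7% of all genes. The shares of all genes were not matched to the members for expression level. All 51 members were above the floor in both populations, against 12427 of the 13116 genes. In sorted populations of this kind, fewer cells in a phase and less RNA per cell in that phase cannot be told apart.

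**Figure D1:**
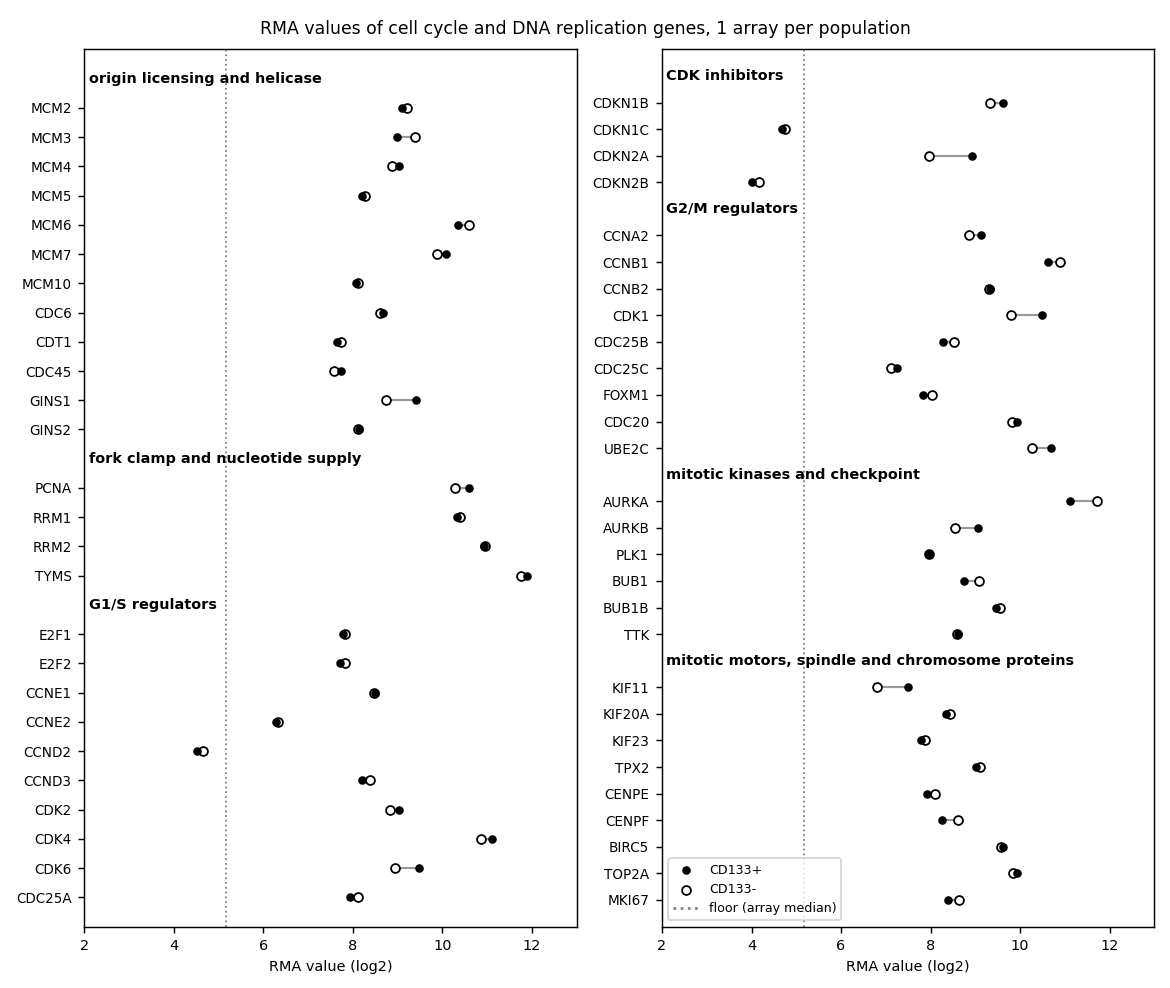
RMA values (log2, horizontal axis) of the 54 measured members by role, with a filled point for the CD133+ array and an open point for the CD133- array. The points of most genes nearly coincide, the widest gap is that of CDKN2A (8.92 against 7.97), and CCND2, CDKN1C and CDKN2B lie below the floor in both populations.

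The sort itself was visible in its marker. PROM1, which encodes CD133, measured 10.35 in CD133+ against 6.04 in CD133- in RMA. Both populations carried the epithelial keratins of hepatocyte-derived cells, KRT8 (10.68 and 10.96 in RMA) and KRT18 (12.58 and 12.91). The epithelial marker EPCAM was below the floor in both. Of the hepatic markers, ALB and AFP were lower in CD133+, with RMA differences of -3.42 and -2.78, while TTR lay the other way at 0.28. Of 16 measured markers of leukocytes, endothelial cells, fibroblasts and erythroid cells, 7 were above the floor. Among these LYZ was higher in CD133+ (11.14 against 9.42) and PECAM1 was lower (6.11 against 7.87). The pan-leukocyte marker PTPRC was below the floor in both. Summed MAS5 intensities in CD133+ and CD133- were 10400 and 4116 for the 4 measured leukocyte markers, 303.3 and 959.1 for the 5 endothelial markers, 863.8 and 496.8 for the 5 fibroblast and stellate markers, and 210.1 and 173.7 for the 2 erythroid markers. LYZ alone made up 10257 and 4008 of the leukocyte sums, and PECAM1 268.0 and 912.9 of the endothelial sums, so that these sums are nearly the values of 1 gene each. The part of such cells in the differences below was not tested.

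Promoters of many, but not all, G1/S and G2/M members carry the sequence elements that textbook accounts assign to each phase. They are shown here because they differ between the G1/S and the G2/M genes. RefSeq promoter windows of 300 bases on GRCh38.p14 were available for 43 of the 55 genes. An E2F element, searched as TTTCCCGC or TTTGGCGC on either strand, was held by 12 of 21 G1/S genes (57.1%) and by 0 of 18 G2/M genes, against 2.75% of the 27305 genes in the table. The element TTTGAA, the core of the cell cycle genes homology region bound by the DREAM and B-MYB complexes, was held by 11 of 18 G2/M genes (61.1%) and by 1 of 21 G1/S genes (RRM1), against 18.2% of all genes. CCAAT, the NF-Y motif, was held by 16 of 18 G2/M genes (88.9%) and 14 of 21 G1/S genes (66.7%), against 39.7% of all genes. Of the 4 inhibitors with a window, 0 held an E2F element, 0 held TTTGAA and 2 held CCAAT. A gene with several starts was counted when any of its windows held the motif. A match is a description of the letters in the window and not evidence of binding.

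The sequences below run 5′ to 3′ from 250 bases before the start to 30 bases after it, on the strand of the gene, with matches to these motifs, on either strand, in capitals. No match in them overlaps another. GINS1 and GINS2 are subunits of one complex with unequal differences, CDK1 and KIF11 are the G2/M genes with the largest differences in favour of CD133+, and DBF4 is the one other replication gene called at 2-fold. CDKN2A has the largest difference of all members, and neither of its 2 windows holds any of the motifs. CDK1 has 2 starts in the table, of which the one with more matches is shown, and CDKN2A has 2, of which the first listed is shown. CDKN2A encodes both p16INK4a and p14ARF. Which of these transcripts begins at the start shown was not determined, so the window is not to be read as that of p16INK4a.
GINS1 promoter (chr20:25407423-25407702, plus strand): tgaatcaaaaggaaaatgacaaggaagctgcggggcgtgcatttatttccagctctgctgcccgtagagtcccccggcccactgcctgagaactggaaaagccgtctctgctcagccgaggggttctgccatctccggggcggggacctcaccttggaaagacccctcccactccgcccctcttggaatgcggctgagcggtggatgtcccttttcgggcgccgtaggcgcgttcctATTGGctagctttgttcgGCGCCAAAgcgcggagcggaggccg
GINS2 promoter (chr16:85688925-85689204, minus strand): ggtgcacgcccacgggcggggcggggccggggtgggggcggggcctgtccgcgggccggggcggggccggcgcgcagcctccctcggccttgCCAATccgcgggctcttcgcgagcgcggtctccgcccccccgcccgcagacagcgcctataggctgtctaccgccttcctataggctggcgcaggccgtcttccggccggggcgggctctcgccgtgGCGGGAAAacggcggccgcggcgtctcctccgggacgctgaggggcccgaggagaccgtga
DBF4 promoter (chr7:87876243-87876522, plus strand): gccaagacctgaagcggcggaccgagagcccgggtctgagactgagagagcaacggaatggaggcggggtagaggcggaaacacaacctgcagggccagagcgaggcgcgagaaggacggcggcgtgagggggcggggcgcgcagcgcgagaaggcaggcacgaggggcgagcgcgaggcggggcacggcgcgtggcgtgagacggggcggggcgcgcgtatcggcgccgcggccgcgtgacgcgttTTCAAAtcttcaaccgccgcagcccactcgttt
CDK1 promoter (chr10:60778228-60778507, plus strand): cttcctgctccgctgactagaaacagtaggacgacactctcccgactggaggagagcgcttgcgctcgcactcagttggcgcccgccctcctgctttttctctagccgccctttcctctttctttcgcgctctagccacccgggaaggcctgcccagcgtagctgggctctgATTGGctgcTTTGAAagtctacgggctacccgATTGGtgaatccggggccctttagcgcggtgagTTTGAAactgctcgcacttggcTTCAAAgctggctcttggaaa
KIF11 promoter (chr10:92592880-92593159, plus strand): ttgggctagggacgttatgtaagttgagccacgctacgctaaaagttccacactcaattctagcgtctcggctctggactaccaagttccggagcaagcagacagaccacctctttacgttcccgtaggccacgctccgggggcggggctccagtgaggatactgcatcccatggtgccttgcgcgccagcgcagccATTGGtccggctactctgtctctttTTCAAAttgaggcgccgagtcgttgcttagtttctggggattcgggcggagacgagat
CDKN2A promoter (chr9:21995295-21995574, minus strand): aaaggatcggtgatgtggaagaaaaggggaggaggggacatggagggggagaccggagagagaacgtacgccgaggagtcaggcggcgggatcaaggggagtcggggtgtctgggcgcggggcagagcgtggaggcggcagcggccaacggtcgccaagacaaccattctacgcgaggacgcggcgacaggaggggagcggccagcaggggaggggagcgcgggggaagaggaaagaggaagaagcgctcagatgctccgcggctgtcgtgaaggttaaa
The differences between the populations had medians near 0 with and without these elements. The median RMA difference was -0.02 over the 12 members with an E2F element and 0.00 over the 29 without one. It was 0.01 over the 12 members with TTTGAA and -0.03 over the 29 without it.

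Of the origin licensing and helicase genes, GINS1 was called as higher and MCM3 was lower in CD133+ by more than the probe set SD in RMA. CDC6 and CDT1 load the MCM2 to MCM7 ring onto origins, and CDC45 and GINS then join it to form the active helicase, a step that MCM10 assists. Of the 12 genes 6 had an RMA difference above 0 and 6 below it, with a median of -0.01, and 10 lay within the probe set SD. The 6 ring subunits ranged from -0.40 for MCM3 to 0.20 for MCM7. MCM3 measured 8.99 in CD133+ against 9.38 in CD133- in RMA, with MAS5 intensities of 2217 and 2488, so that its RMA difference was larger than the MAS5 log2 ratio of -0.17. The loader CDC6 had RMA values of 8.67 and 8.61, and CDC45 had 7.73 and 7.57. CDT1 differed by -0.09 in RMA but had a MAS5 log2 ratio of -0.70, and the processings thus disagree on its size. MCM10 had an RMA difference of -0.03 in the probe set used, and 0.27 and 0.40 in its other probe sets.

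GINS1 (PSF1), a subunit of the GINS complex, was the replication member that stood out. Its RMA values were 9.41 in CD133+ and 8.75 in CD133-, and its MAS5 intensities 2992 and 1939. It was 1.58-fold higher in RMA and 1.54-fold in MAS5, from a single probe set. GINS2, its partner, had RMA values of 8.13 and 8.12. The remaining subunits are not among the 55 genes, and they are compared here after their values were seen. GINS4 had RMA values of 9.26 and 8.59, a difference of 0.68, and its 3 probe sets above the floor ranged from 0.28 to 0.68, while GINS3 had 6.68 and 6.91, a difference of -0.22. Read from the probe set used, 2 of the 4 subunits were thus higher in CD133+ by more than the probe set SD, but not every probe set of GINS4 was.

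The sliding clamp and the enzymes of nucleotide supply were evenly expressed. PCNA, the clamp that holds DNA polymerase on its template, had RMA values of 10.60 and 10.29 and a difference of 0.31. TYMS, thymidylate synthase, had 11.90 and 11.75. The ribonucleotide reductase subunits RRM1 and RRM2 had differences of -0.07 and -0.03. None of these 4 genes was called at 1.5-fold, and all 4 lay within the probe set SD.

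Among the G1/S regulators, the cyclin E and E2F genes hardly differed, while CDK6 was higher in CD133+ in every probe set above the floor. CCNE1 had RMA values of 8.49 and 8.48, CCNE2 6.29 and 6.34, E2F1 7.78 and 7.83, and E2F2 7.72 and 7.83. CDK6, which pairs with D-type cyclins, measured 9.48 in CD133+ against 8.95 in CD133- in RMA, with MAS5 intensities of 3291 and 2140. It was 1.45-fold higher in RMA and 1.54-fold in MAS5, which misses the 1.5-fold call in RMA, and its 5 probe sets above the floor had RMA differences from 0.32 to 0.54. CDK4 had RMA values of 11.12 and 10.87 and a MAS5 log2 ratio of 0.50, and CDK2 had 9.03 and 8.84. CCND3 differed by -0.17 in RMA and had a MAS5 log2 ratio of 0.08. CCND2 was below the floor in both populations, with values of 4.52 and 4.65. CDC25A, the phosphatase that activates CDK2, differed by -0.17 in RMA and had a MAS5 log2 ratio of -0.72, again a disagreement in size between the processings. The 9 genes above the floor had a median difference of -0.04.

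The largest difference of any member belonged to an inhibitor. CDKN2A, which encodes the CDK4 and CDK6 inhibitor p16INK4a and, from another first exon and reading frame, p14ARF, measured 8.92 in CD133+ against 7.97 in CD133- in RMA. Its MAS5 intensities were 2875 and 1379. It was 1.93-fold higher in RMA and 2.09-fold in MAS5, just short of the 2-fold call. The probe set used carries the suffix _x_at, which marks probes that may also match other transcripts. A second probe set without that suffix had RMA values of 7.63 and 6.04, a difference of 1.59, and a MAS5 log2 ratio of 1.62. With _x_at and _s_at probe sets left out CDKN2A was therefore called at 2-fold, the only one of the 37 members then above the floor, against 3.44% of all genes. The third probe set was below the floor, with values of 4.92 and 4.99. The files do not say which of the CDKN2A transcripts each probe set reads.

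Of the other inhibitors, CDKN1B was the one above the floor, and it was not called. CDKN1B, which encodes the CIP/KIP inhibitor p27, had RMA values of 9.61 and 9.32 and MAS5 intensities of 3220 and 3350, so its direction changed between the processings. CDKN2B, the INK4 neighbour of CDKN2A on chromosome 9, was below the floor in both populations, with an RMA difference of -0.17 and MAS5 intensities of 77.4 and 11.0, both under the MAS5 column medians of 86.0 and 86.1. CDKN1C, which encodes p57, was below it too, with 4.69 and 4.74.

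**Figure D2:**
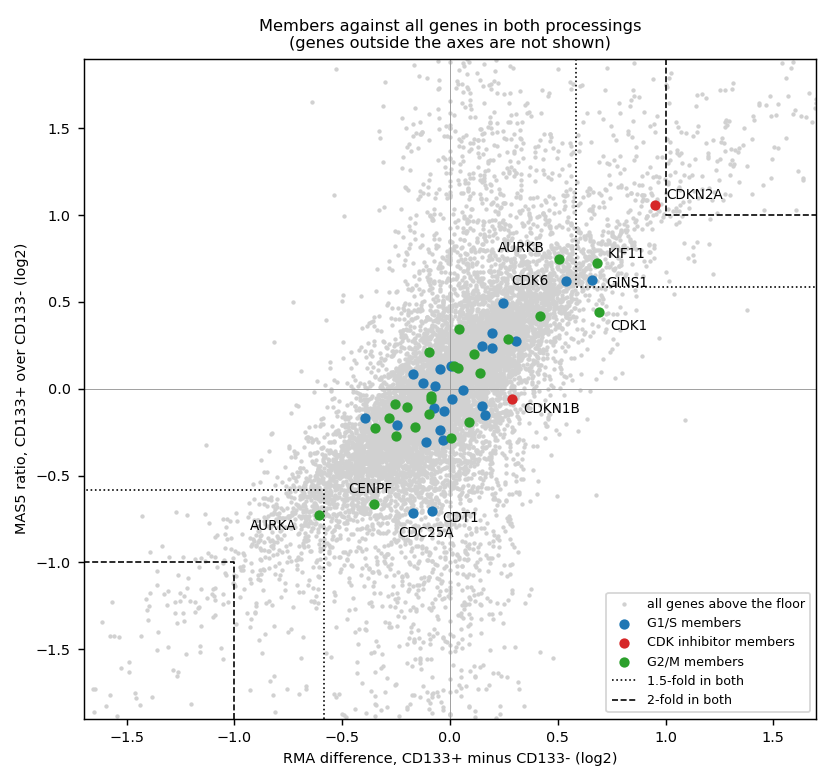
Each point is a gene above the floor, placed by its RMA difference (horizontal axis, log2) and its MAS5 log2 ratio (vertical axis), both CD133+ against CD133-, with G1/S members in blue, G2/M members in green and CDK inhibitors in red over all genes in grey. CDKN2A (0.95 and 1.06), KIF11 (0.68 and 0.72), GINS1 (0.66 and 0.63) and AURKA (-0.61 and -0.73) lie beyond the dotted 1.5-fold lines on both axes, and no member lies beyond the dashed 2-fold lines on both.

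Of the regulators of G2 and of mitotic entry and exit, CDK1 was higher in CD133+ while its cyclins were not uniformly so. CDK1 measured 10.48 in CD133+ against 9.79 in CD133- in RMA, with MAS5 intensities of 7264 and 5337. It was 1.62-fold higher in RMA and 1.36-fold in MAS5, and so was not called at 1.5-fold in both. Its 4 probe sets had RMA differences between 0.64 and 0.69, the narrowest range of any member with 4 or more probe sets above the floor. The MAS5 log2 ratio of CDK1 was 0.44 in the probe set used and 0.77, 0.62 and 0.44 in the others. The probe sets with 0.77 and 0.62 passed 1.5-fold in both processings. CCNB1, cyclin B1, lay the other way in the probe set used, with RMA values of 10.61 and 10.89, but its second probe set had 8.30 and 7.78. CCNB2 had RMA values of 9.32 and 9.30, and CCNA2, cyclin A2, 9.13 and 8.86. The second probe set of CCNA2 lay the other way, with 8.55 and 8.73.

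UBE2C, the ubiquitin-conjugating enzyme of the anaphase-promoting complex, had RMA values of 10.68 and 10.26 and was 1.34-fold higher in CD133+ in both processings. CDC20, the activator of that complex, had RMA values of 9.93 and 9.82. The CDK phosphatases CDC25B and CDC25C had differences of -0.26 and 0.14, and FOXM1, the transcription factor of G2/M genes, had one of -0.20. All 9 genes of this group had the same sign in RMA and MAS5, 6 above 0 and 3 below, and none was called at 1.5-fold in both processings.

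Among the mitotic kinases the Aurora pair went in opposite directions. AURKA, which acts at centrosomes and spindle poles, measured 11.11 in CD133+ against 11.72 in CD133- in RMA, with MAS5 intensities of 7988 and 13235. It was 1.52-fold lower in CD133+ in RMA and 1.66-fold in MAS5, and its 3 probe sets had RMA differences from -0.72 to -0.57. AURKB, the kinase of the chromosomal passenger complex at centromeres and the midzone, measured 9.05 in CD133+ against 8.55 in CD133- in RMA, with MAS5 intensities of 2327 and 1389. It was 1.42-fold higher in RMA and 1.68-fold in MAS5, and its second probe set had an RMA difference of 0.48. In neither gene did any probe set above the floor point the other way. The checkpoint kinase BUB1 had RMA values of 8.74 and 9.08 and differences from -0.64 to -0.17 over 3 probe sets, while BUB1B (-0.09), TTK (0.04) and PLK1 (0.00) hardly differed in RMA.

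KIF11 (Eg5), the kinesin that pushes spindle poles apart, was the one motor or spindle gene called. Its RMA values were 7.49 in CD133+ and 6.81 in CD133-, and its MAS5 intensities 889 and 538.1. It was 1.60-fold higher in RMA and 1.65-fold in MAS5, from a single probe set. The kinesins of the midzone, KIF20A and KIF23, had RMA differences of -0.10 each. TPX2, which activates AURKA on spindle microtubules, had RMA values of 9.01 and 9.10, and so did not share AURKA's difference.

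The kinetochore proteins CENPE and CENPF had RMA differences of -0.16 and -0.35, the latter with a MAS5 log2 ratio of -0.66. BIRC5 (survivin) had RMA values of 9.61 and 9.57, and its 4 probe sets had RMA differences from 0.04 to 0.31. TOP2A, the topoisomerase that untangles sister chromatids, had 9.93 and 9.84, with opposite signs in RMA (0.09) and MAS5 (-0.19). The other TOP2A probe set above the floor had RMA values of 9.83 and 9.49. MKI67, which encodes the Ki-67 antigen used to count dividing cells, had RMA values of 8.39 and 8.64 and MAS5 intensities of 1302 and 1571. The 4 probe sets of MKI67 had RMA differences from -0.25 to 0.17 and so did not settle a direction.

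**Figure D3:**
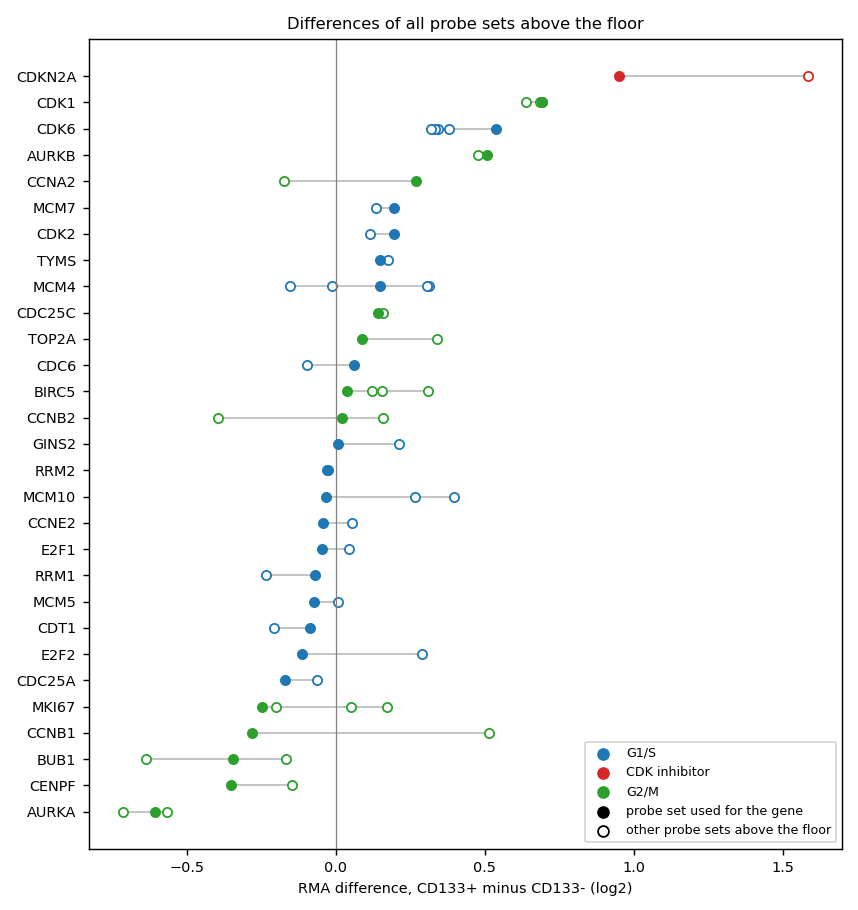
RMA differences (log2, horizontal axis) of every probe set above the floor for the 29 members with more than 1, ordered by the probe set used for the gene (filled) beside the others (open). The probe sets of CDK1 lie together between 0.64 and 0.69 and those of AURKA between -0.72 and -0.57, while those of CCNB1 lie on both sides of 0.

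Probe sets of one gene agreed somewhat more closely among the members than over all genes. For 29 members the probe set used and the next one above the floor could be compared, and 21 pairs had the same sign (72.4%), against 67.9% of the 6170 genes. The SD of the gap was 0.26 among the members, against 0.35 over the 6170 genes. Between the processings 39 of 51 members had the same sign and 12 opposite signs. Of the 3 members called as higher, GINS1 and KIF11 each have 1 probe set, so that no second measurement on the arrays bears on them.

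Set against each other, the G1/S and the G2/M genes had nearly the same centre. The median RMA difference was -0.03 over 25 G1/S genes and -0.04 over 24 G2/M genes, a gap of 0.01, and in MAS5 the gap was 0.04. In each group 12 genes lay above 0. The G2/M genes were more widely spread, with an SD of 0.32 and quartiles of -0.21 and 0.12, against an SD of 0.23 and quartiles of -0.09 and 0.16 for the G1/S genes and an SD of 0.46 over all genes. At 1.5-fold 1 of 25 G1/S genes (4%) and 2 of 24 G2/M genes (8.33%) were called, against 9.49% of all genes. Without _x_at and _s_at probe sets, 16 G2/M genes remained above the floor with a median of 0.15, while the G1/S median was 0.01.

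The wider pathway gave a similar picture. Of 116 measured genes for replication, G1/S control and mitosis outside the 55, 114 were above the floor, and their median RMA difference was 0.01. At 2-fold 1 was called and at 1.5-fold 9, of which 7 were higher and 2 lower in CD133+, which is 7.89% against 9.49% of all genes. The 1.5-fold count was 4 of 107 with the median over probe sets and 14 in MAS5 alone, and the 2-fold call was lost without _x_at and _s_at probe sets. The one called at 2-fold was DBF4, the regulatory subunit of the CDC7 kinase that fires licensed origins. DBF4 measured 10.45 in CD133+ against 9.30 in CD133- in RMA, with MAS5 intensities of 6801 and 2377, which is 2.22-fold in RMA and 2.86-fold in MAS5, from its single probe set, whose suffix _s_at marks probes shared by several transcripts. CDC7 itself, named after its values were seen, had RMA values of 8.63 and 8.52. GINS4 was the other replication gene called among 38. Among 58 mitotic genes the called ones were CDCA3, which acts in the turnover of the kinase WEE1 (9.53 and 8.74 in RMA), and DEPDC1 (8.88 and 9.71), whose 4 probe sets had RMA differences from -1.17 to -0.34.

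**Figure D4:**
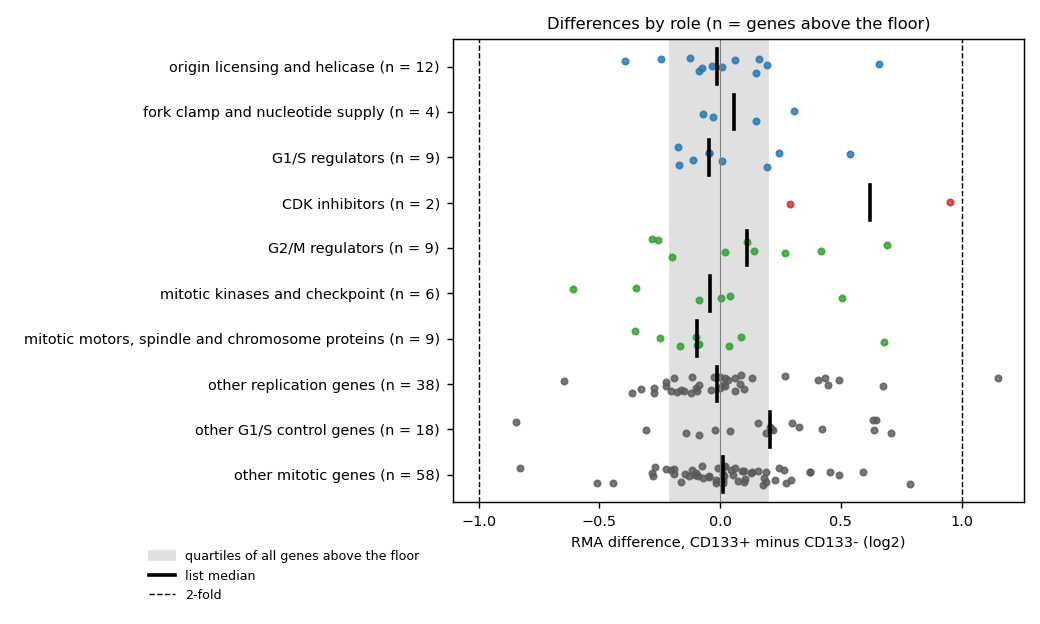
RMA differences (log2, horizontal axis) of the members and of other pathway genes above the floor, 1 point per gene, by role, with the median of each list as a bar and the quartiles of all genes as a grey band. Most medians lie in the band, DBF4 (1.15) is the one gene beyond the dashed 2-fold line, and the other G1/S control genes have a median of 0.21.

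Genes of G1/S control outside the 55 included several read as higher in CD133+ in the probe set used. Of 18 above the floor 5 were called at 1.5-fold, which is 27.8% against 9.49% of all genes and was not tested, their median RMA difference was 0.21, and 13 lay above 0. That count changed with the choice of probe set and floor, and so did the number of genes above the floor. It was 1 of 16 with the median over probe sets, 3 of 12 without _x_at and _s_at probe sets, and 3 of 12 when the floor was raised to the 75th percentile. The share of all genes called at 1.5-fold was not computed in these settings. RB1, the retinoblastoma protein, measured 7.42 in CD133+ against 6.78 in CD133- in RMA, with MAS5 intensities of 778.4 and 432.2. RBL1, its relative p107, had RMA values of 5.90 and 5.19, the CD133- value being just above the floor. RBL2, the third pocket protein, named after its values were seen, differed by 0.33 in RMA and had a MAS5 log2 ratio of 1.18, but its second probe set had an RMA difference of -0.05. E2F7, a repressor of the E2F family, had RMA values of 6.51 and 5.87, and CKS1B, a CDK-binding subunit that serves in the degradation of p27, 11.75 and 11.11. TFDP2, a DNA-binding partner of E2F proteins, was the one called as lower, with 7.77 and 8.62, but its 4 probe sets above the floor had differences from -0.85 to 0.31.

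The subunits of other complexes were set side by side after their values were seen. Of the 6 subunits of the origin recognition complex, ORC5 and ORC6 had the largest differences in the probe set used, 0.41 and 0.45. The others lay between -0.28 and 0.03. ORC2 was the lowest at -0.28, but its second probe set had an RMA difference of 0.33, and that of ORC5 had 0.24. Of the 5 subunits of the clamp loader that places PCNA, RFC5 was lower in CD133+ with RMA values of 9.11 and 9.75, and the other four lay between -0.27 and 0.09. In the chromosomal passenger complex, AURKB (0.51) and CDCA8 (0.29) lay above BIRC5 (0.04) and INCENP (0.00) in the probe set used. The 4 probe sets of BIRC5 had RMA differences from 0.04 to 0.31, so its place below CDCA8 depends on the probe set.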

How the data were processed

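Total RNA of flow-sorted PLC8024 cells was hybridised to oligonucleotide arrays as biotin-labelled RNA. Per the labels, the authors deposited linear MAS5 intensity values and log2 RMA values, and the submitters' processing notes name GCOS, MAS5 and RMA without versions. The labels do not say whether both processings of a population come from 1 array, so they were never treated as replicates. The number of arrays limits the precision.

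Each of 54675 probe sets was named from GEO's platform annotation, with symbols updated through the gene ID in a RefSeq table of GRCh38.p14 for 41043 of them. Of these probe sets 41097 had 1 gene, 1801 several and 11777 none, and only the first were used. Each gene was read from the probe set of highest mean RMA over both populations. MAS5 ratios had a pseudocount of 0. Calls required the floor and the stated fold in RMA and MAS5, and the call rule was tested on simulated data. Promoter sequences are from RefSeq. Alternatives were MAS5 alone, RMA alone, 50 added to MAS5 values, the median over probe sets, leaving out _x_at and _s_at probe sets, a floor at the 75th percentile and no floor. Python 3.11.15, pandas 2.3.3 and matplotlib 3.10.9 were used. All members may be named, and of the other pathway genes those past 1.5-fold in both processings, up to 6 per list. The members, lists and fold thresholds were chosen with earlier results of these data known.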

Additional observations from a re-analysis of the deposited data

How the results depend on the processing

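No member called at 1.5-fold reversed its direction under any alternative run on it, but most alternatives could not have shown a reversal. The call already requires the same sign in RMA and MAS5, and changing the floor or the MAS5 pseudocount cannot change a sign. GINS1 and KIF11 have a single probe set, so the probe set alternatives return the same value for them. Only CDKN2A and AURKA could have reversed under these. Without _x_at and _s_at probe sets their RMA differences were 1.59 and -0.57. The count of members moved in MAS5 alone, where 1 member was called at 2-fold and 9 at 1.5-fold (17.6%, against 28.1% of all genes), against 0 and 4 in both processings together. That of other pathway genes was 2 at 2-fold and 14 at 1.5-fold in MAS5 alone, against 1 and 9. The alternatives on other pathway genes were added after the data were seen. With the median over probe sets, 4 of 107 other pathway genes were called at 1.5-fold. Among the other G1/S control genes 1 of 16 was then called, against 5 of 18. When the floor was raised to the 75th percentile 3 of 12 G1/S control genes were called, and 3 of 12 when read without _x_at and _s_at probe sets. Without _x_at and _s_at probe sets 1 member and 0 other pathway genes were called at 2-fold, since CDKN2A is then read by another probe set and DBF4 has none left. In that setting the G2/M median was 0.15, the G1/S minus G2/M gap was -0.15, with the cause not tested, and the inhibitor median was 0.94. With no floor the inhibitor median was 0.12 over 4 genes, against 0.62 over the 2 above the floor. Other counts and medians stayed within 1.5 times or within the probe set SD scaled to the list size. No paired analysis was possible because each population has 1 array per processing. Without detection calls or replicates, small differences of dim genes such as CCND2, CDKN1C and CDKN2B cannot be resolved.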
